A study of Homo sapiens with 46 samples.

Results

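Expression of 45 genes of mitosis and the G2/M transition was followed in human cells that lost Ku, the Ku70/Ku80 dimer that binds DNA ends. The 45 genes were taken by symbol from the deposited gene tables and are 45 of 61228 genes in the HCT116 table and 45 of 30160 in the HEK293 table. All 45 passed the low-count filter in each of the 3 fits, so no member dropped out. They cover the cyclin-CDK engine and mitotic entry (10 genes), anaphase and mitotic exit (4), the spindle checkpoint (5), kinetochore and centromere (7), the chromosomal passenger complex (4), spindle motors and microtubule proteins (6), central spindle and cytokinesis (5), chromosome structure and proliferation (2) and transcription factors (2).

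The study removed Ku by 3 routes and read RNA in 46 libraries. HCT116 is a colon carcinoma line and HEK293 an embryonic kidney line. In the first route, clones 1, 7 and 9 of HCT116 Ku80-AID cells, in which Ku80 carries an auxin-inducible degron, received either DMSO or a mix of the auxin IAA (indole-3-acetic acid, 100 µM) and doxycycline (0.5 µg/mL). IAA groups therefore differ from DMSO groups by both compounds as well as by Ku80 loss, and no HCT116 line without the degron received them here. Libraries were made after 1 day (DMSO and IAA, clones 1 and 9), after 2 days (DMSO and IAA, 3 clones) and after 4 and 6 days (IAA, 3 clones), so the 4- and 6-day IAA libraries are compared with DMSO at 2 days. A CDK4/6 inhibitor, which holds cells in G1, was given without or with IAA and doxycycline for 2 days (clones 1 and 9) and 4 days (3 clones). Clones 1, 13 and 15 of Ku80-AID, MAVS-/- cells, which also lack the mitochondrial protein through which RIG-I and MDA5 signal, received DMSO or IAA with doxycycline for 4 days. In the second route, HCT116 Ku86Flox/- cells, with 1 floxed and 1 deleted copy of the Ku80 gene, either carried CreERT2, a Cre recombinase that enters the nucleus with 4-hydroxytamoxifen (4OHT), or did not. Both received 50 nM 4OHT or ethanol for 4 days, in 2 libraries per group. In the third route, HEK293 Ku70-/- clones Sa11, SB and TI lived on a doxycycline-inducible Ku70 and were read with 1 µg/mL doxycycline or 8 days after its withdrawal. The genotype labels of 5 HEK293 libraries number the inducible protein Ku71 to Ku75, which was read here as Ku70. Each clone is 1 line, and the name and dose of the inhibitor are unstated in the labels.

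Cells enter mitosis when cyclin A and cyclin B activate CDK1, helped by CDC25 phosphatases and by the Aurora and Polo-like kinases. The spindle checkpoint then holds the anaphase-promoting complex in check until kinetochores are attached. After that CDC20 activates the complex to destroy securin and cyclin B, and the central spindle directs cytokinesis. The mRNAs of most of these genes rise in G2 and M through the MuvB complex with B-MYB and FOXM1 and are held down in G0 and G1 by DREAM, which bind promoters with a CHR element, often beside CCAAT boxes bound by NF-Y.

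Promoters are shown because many members share motifs there that the choice of genes did not use. A CHR-type hexamer, TTTGAA or TTCGAA on either strand, was present between 250 bases before and 50 after the RefSeq start (GRCh38.p14) in 26 of the 38 members with an entry (68.4%), against 16.6% of 27305 promoters of the same length. CCAAT on either strand, which may share an end base with the hexamer, was present in 29 of 38 (76.3%), against 35.7%. The 100 bases before the start follow for 4 members with both motifs and for 2 with neither in the whole window, each 5′ to 3′ on the gene's strand with matches in capitals.
PLK1, chr16:23678789-23678888, plus strand: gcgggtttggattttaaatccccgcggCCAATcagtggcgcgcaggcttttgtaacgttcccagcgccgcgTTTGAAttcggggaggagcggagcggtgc
CCNB2, chr15:59105046-59105145, plus strand: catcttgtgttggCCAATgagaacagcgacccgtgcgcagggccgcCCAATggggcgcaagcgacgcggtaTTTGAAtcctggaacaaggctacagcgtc
HMMR, chr5:163460532-163460631, plus strand: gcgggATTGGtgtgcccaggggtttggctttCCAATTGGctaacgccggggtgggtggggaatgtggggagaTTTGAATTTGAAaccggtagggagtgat
KIF4A, chrX:70290004-70290103, plus strand: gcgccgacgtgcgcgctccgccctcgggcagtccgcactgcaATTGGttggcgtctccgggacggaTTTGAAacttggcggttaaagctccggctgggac
CDC25B, chr20:3786851-3786950, plus strand: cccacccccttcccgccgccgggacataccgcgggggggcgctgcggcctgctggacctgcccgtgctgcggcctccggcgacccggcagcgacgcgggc
MYBL2, chr20:43667014-43667113, plus strand: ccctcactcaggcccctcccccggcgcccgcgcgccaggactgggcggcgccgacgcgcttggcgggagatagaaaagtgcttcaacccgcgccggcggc
PLK1 and CCNB2 hold the hexamer at the same distance, beginning 29 bases before the start. HMMR carries it back to back, beginning 28 and 22 bases before the start, and in KIF4A the CCAAT match reads ATTGG because it lies on the other strand. CDC25B, CDC25C, CENPE, KIF2C and MYBL2 had neither motif in the window. Only the first RefSeq entry of each gene was searched, so a motif near another start would be missed. A match is a string of letters and was not tested as a binding site.

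All libraries held deep counts, 9.53 to 45.7 M per HCT116 library and 19.6 to 28.5 M per HEK293 library. In HCT116, 6 of 10 colon epithelial markers had a median above 1 TPM over libraries (EPCAM 313 TPM, CDH1 36.8 TPM), while the medians of CDH17 and TSPAN8 were 0. Of 10 blood and stromal markers, COL1A1 had a median of 13.4 TPM and the others 0.126 TPM or less. The Ku80 mRNA of degron clones checks nothing, since IAA removes the protein. MAVS mRNA was at 13.1 to 24.9 TPM in the MAVS-/- clones and 29.6 to 57.7 TPM in the other degron clones. The 1-day and the 2-day inhibitor libraries, both of clones 1 and 9, stood apart: between 2-day and 1-day DMSO 22.1% of all genes were called lower and 15.1% higher. In HEK293, 5 of 8 markers of that line had a median above 1 TPM (LIN28B 45.8 TPM, NEFL 41.8 TPM, CDH2 39.7 TPM, INA 16.3 TPM and GATA3 5.89 TPM). PAX2 was at 0.714 TPM there and 2.47 TPM in HCT116, and SOX11 and NEFM were near 0 in HEK293 at 0.197 and 0.116 TPM. Levels below are CPM, counts scaled to library size with edgeR's TMM factors, and a change is a log2 ratio ± its standard error. A gene is called when its Benjamini-Hochberg adjusted p over all genes of the fit is under 0.05.

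In the 2-day DMSO clones the members spanned a wide range of levels per transcript length. BUB3, a checkpoint protein that also works outside mitosis, was highest at 410.1 ± 16.4 TPM (SD, n = 3), followed by PTTG1 (securin) at 381 ± 14.1 and CCNB1 (cyclin B1) at 306 ± 16.2. SPC24, a subunit of the NDC80 complex, was lowest at 19.6 ± 2.56 TPM, next to CDC25C at 20.5 ± 3.67, and these neighbours differed by less than their SDs. PTTG1 and KIF4A have near-identical copies elsewhere in the genome, and how the counting divided such reads is unstated, so their values are uncertain.

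The summed CPM of the 45 genes gives the course of the set. It was 7459 and 7587 in the DMSO and 7065 and 7273 in the IAA libraries at 1 day. At 2 days it was 6798, 7689 and 7675 in DMSO and 2997, 4779.6 and 4373 in IAA for clones 1, 7 and 9. It was 1873, 2366 and 2990.3 at 4 days of IAA and 2146, 1952 and 2812 at 6 days. The IAA libraries at 2, 4 and 6 days lay below every 2-day DMSO library, and those of 4 and 6 days overlapped. In bulk RNA, fewer cells in G2 and M and less of these mRNAs per cell cannot be told apart.

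**Figure D1:**
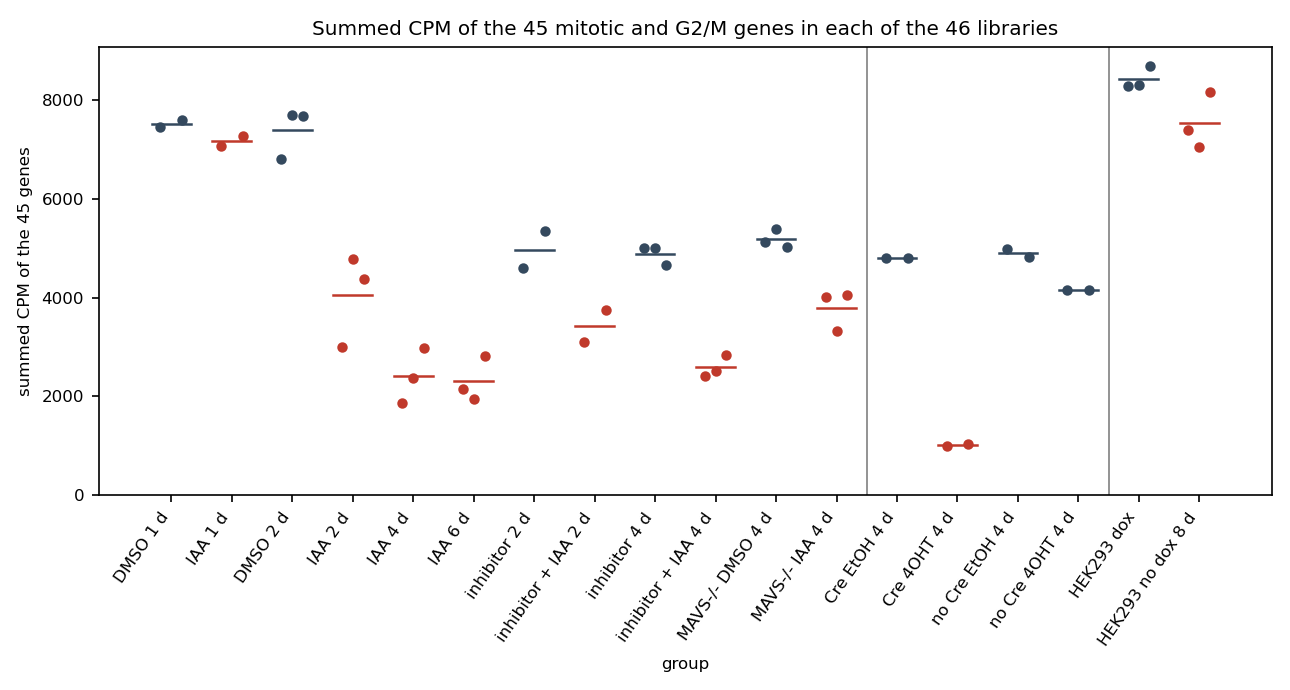
Summed TMM-scaled CPM of the 45 genes (y axis) in each library (points) by group (x axis), with group means as lines; red marks groups with IAA, 4OHT with Cre or doxycycline withdrawal. Grey lines separate the degron clones, the Ku86Flox/- cells and HEK293, which were scaled apart, and the 2 libraries of 4OHT with Cre are the lowest, at 989.9 and 1028.

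One day of IAA moved no member past the threshold. By edgeR 0 of 45 were called in either direction, 1 had an unadjusted p under 0.05, and the members' median change was -0.03 on the log2 scale, when 0.0689% of all genes were called lower and 0.117% higher. DESeq2 and limma also called 0 members. ESPL1 (separase, the protease that opens cohesin rings) had the largest change, -0.57 ± 0.25, with 99 and 104 CPM in DMSO and 67.9 and 69.5 in IAA (adjusted p = 0.597). A fit of these 2 groups alone called 4 members lower and 0 higher. It called 9.99% of all genes in either direction, a share close to that of the members. Of its 1607 called genes 795 were higher.

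After 2 days of IAA 39 of 45 members were called lower and 0 higher, with a median of -0.88, when 9.94% of all genes were called lower and 9.12% higher. The 6 not called were CDC25B, CDC25C, SPC24, CENPE, HMMR and ECT2, with changes of -0.72 (HMMR) to -0.25 (CDC25B). At 4 days 44 were called lower with a median of -1.80, against 14.9% of all genes lower and 17.9% higher. ECT2, the exchange factor that activates RhoA for cytokinesis, was the exception at -0.92 ± 0.38 (adjusted p = 0.0631). With the clone as a block all 45 were called lower at 4 days, when 33.9% of all genes were called in either direction. At 6 days all 45 were called lower with a median of -1.81, against 17.5% of all genes lower and 17.8% higher. All 39 genes called at 2 days were called lower again at 4 and 6 days. These 3 comparisons share the 2-day DMSO libraries, and within each clone all 45 members were lower than in that clone's DMSO library at each of the 3 times. The median change at 2 days was -1.29 in clone 1, -0.69 in clone 7 and -0.86 in clone 9, and at 4 days it was -2.06, -2.02 and -1.60. Leaving out clone 1 at 2 days of IAA lowered the number called to 28.

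Between 2 and 4 days of IAA 37 members fell further and 0 rose, with a median of -0.89, when 3.44% of all genes were called lower and 4.73% higher. CDCA3, a trigger of WEE1 destruction at mitotic entry, changed most at -1.66 ± 0.18. The number was 20 without the 2-day IAA library of clone 7, 23 without that of clone 9, and 13 in a fit of the 2 groups alone, which called 1.77% of all genes. Between 4 and 6 days 1 member was called, CDC25B at -0.47 ± 0.12, when 7.11% of all genes were called lower and 5.36% higher. 22 of the other 44 members changed down and 22 up. With the clone as a block 2 members were called lower, when 14.4% of all genes were called, and leaving out single libraries gave 1 to 5 calls, in both directions.

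**Figure D2:**
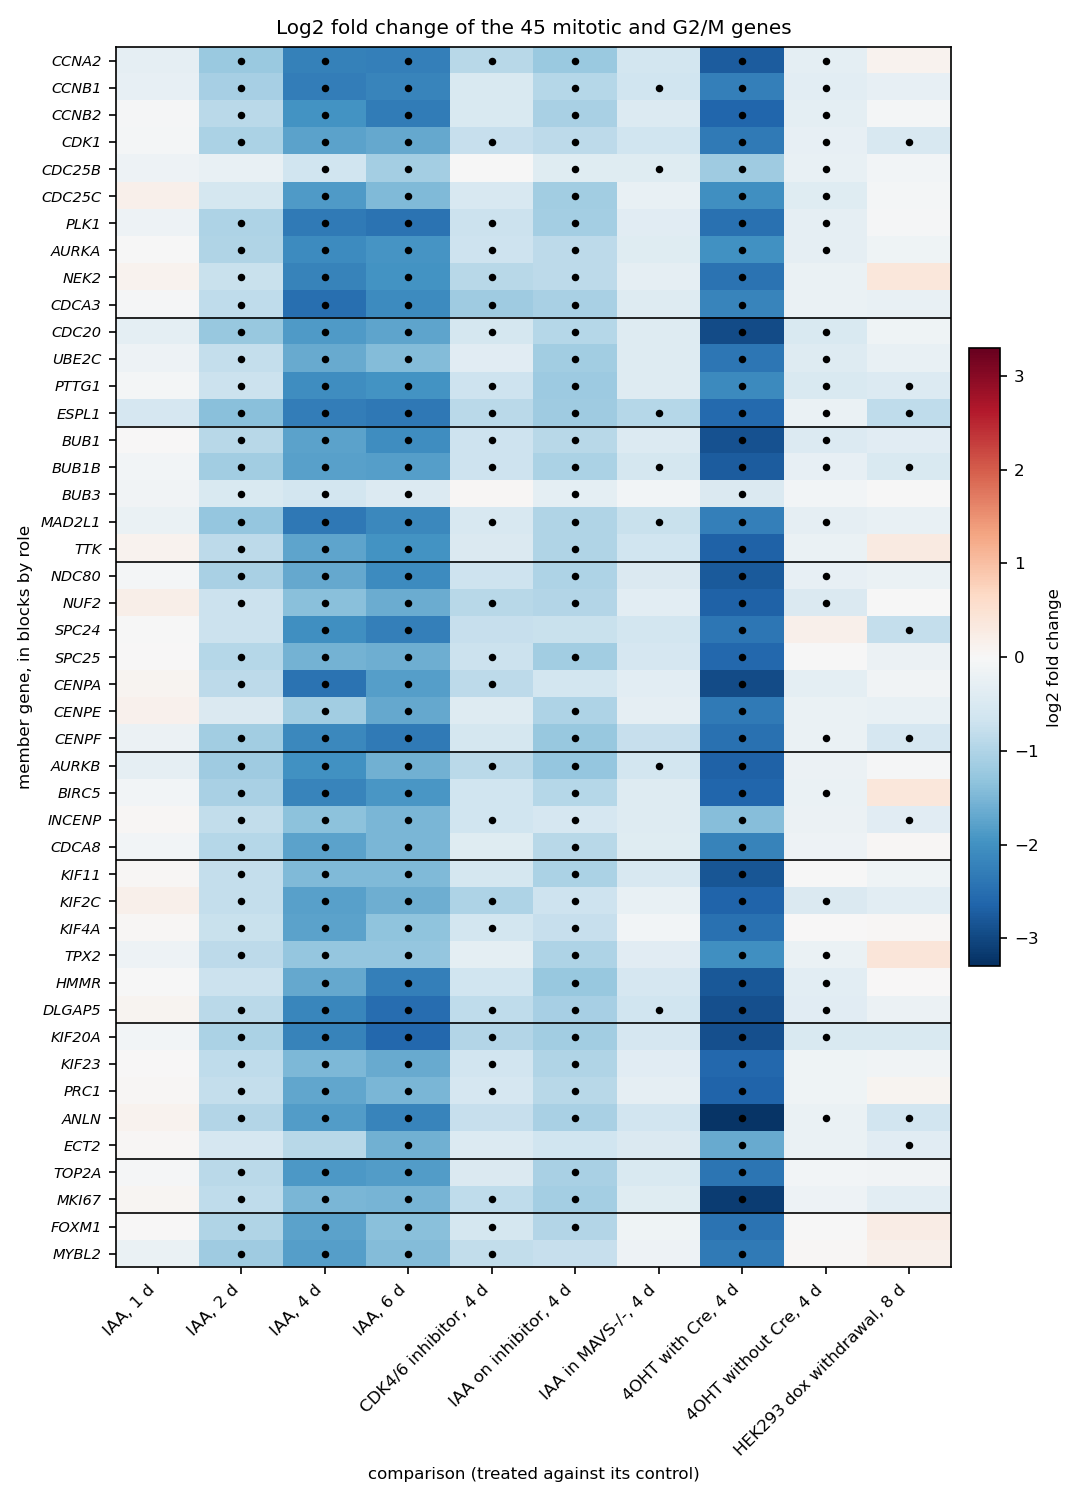
Log2 fold change (colour, blue lower and red higher) of each of the 45 genes (rows, in blocks by role in the order of the text) in 10 comparisons (columns), with a black dot where the adjusted p was under 0.05. Dots fill 39, 44 and 45 rows at 2, 4 and 6 days of IAA, 45 rows for 4OHT with Cre, 7 for IAA in MAVS-/- clones and 9 in HEK293.

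Among genes of the CDK1 engine, 10 of 10 were called lower at 4 and at 6 days. CCNB1 was at 216, 239.6 and 229 CPM in the 2-day DMSO libraries of clones 1, 7 and 9, 82.8, 120.0 and 118 at 2 days of IAA, 37.7, 39.9 and 63 at 4 days and 56.9, 34.7 and 58.9 at 6 days. IAA lay below DMSO in every library, and the 4- and 6-day values overlapped. The change was -1.09 ± 0.17 at 2 days and -2.29 ± 0.18 at 4 days, a 4.88-fold fall (edgeR adjusted p = 2.69e-10). CDK1, the kinase it activates, was at 133, 149.7 and 149 CPM in DMSO, 52.7, 81.7 and 74.5 at 2 days of IAA, 29.6, 39.4 and 58.6 at 4 days and 47.8, 28.4 and 58.3 at 6 days, with clone 1 lowest at 2 days. Its change at 4 days was -1.77 ± 0.23 (adjusted p = 9.65e-07).

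PLK1, the Polo-like kinase of mitotic entry and spindle assembly, was at 162, 188 and 184 CPM in DMSO, 61.5, 93.4 and 111 at 2 days of IAA, 36, 23.8 and 47 at 4 days and 27.4, 32.8 and 38.3 at 6 days. It was called at each time, -1.01 ± 0.19, -2.33 ± 0.20 and -2.44 ± 0.19, and ended 5.42-fold lower. CDCA3 had the largest change of all members at 4 days, -2.49 ± 0.18, from 34.6, 44.2 and 41.7 to 7.41, 7.35 and 6.63 CPM, with no overlap. CDC25B, a phosphatase that starts CDK1 activation, was the slow member of the role: it was at 323, 368 and 306 CPM in DMSO, 247, 295 and 296 at 2 days of IAA, 212, 224 and 198 at 4 days and 128, 176 and 156 at 6 days. Its change was -0.25 ± 0.12 at 2 days (adjusted p = 0.168) and -1.12 ± 0.12 at 6 days. CDC25B depends on the control: 1-day DMSO libraries held 197 and 209 CPM, and against them its change was 0.46 at 2 days and 0.06 at 4 days. Against that control 36 of the 45 members were called lower and 1 higher at 2 days of IAA. That run called 49.6% of all genes in either direction. At 4 days 42 members were called lower and 0 higher (54.4% of all genes), and at 6 days 45 lower (51.7%).

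The 4 genes of anaphase and mitotic exit were called lower at 2, 4 and 6 days. CDC20, the activator of the anaphase-promoting complex, was at 183, 213 and 222 CPM in DMSO, 63.9, 103 and 95.6 at 2 days of IAA, 55.8, 35.7 and 79.3 at 4 days and 51.3, 71.2 and 62.7 at 6 days. Its libraries overlapped between 2 and 4 days but not with DMSO. ESPL1 had the largest change of all members at 2 days, -1.38 ± 0.21 (adjusted p = 3.55e-05), from 72.8, 85.9 and 86 to 21.4, 31.7 and 41.6 CPM. UBE2C (the ubiquitin-conjugating enzyme of the complex) and PTTG1 changed by -1.67 and -2.06 at 4 days.

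In the spindle checkpoint, 5 of 5 genes were called lower at each of the 3 times, over a wide span. MAD2L1, the inhibitor that sequesters CDC20, was at 97.8, 117 and 109.8 CPM in DMSO and 16.9, 24.2 and 22.3 at 4 days of IAA, a change of -2.36 ± 0.17 (edgeR adjusted p = 5.14e-11), the smallest adjusted p of any member then. BUB1, the kinase that recruits the checkpoint to kinetochores, was at 169, 204 and 205 CPM in DMSO, 76.3, 119.9 and 109 at 2 days of IAA, 38.2, 63.8 and 68.6 at 4 days and 54.1, 34.3 and 50.3 at 6 days. Its groups did not overlap with DMSO, and its change was -1.76 ± 0.19 at 4 days. BUB3 had the smallest called change at 4 and 6 days: 266, 268 and 267 CPM in DMSO against 163, 181 and 183 at 4 days of IAA and 197, 176 and 217 at 6 days. The fall was small, -0.60 ± 0.08 and -0.44 ± 0.08, yet the libraries did not overlap.

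Of 7 kinetochore and centromere genes 5 were called lower at 2 days and 7 at 4 and 6 days. NDC80, which binds spindle microtubules, was at 54.3, 57.6 and 52.1 CPM in DMSO, 21.2, 31.5 and 25.8 at 2 days of IAA, 10.2, 15.1 and 26.1 at 4 days and 14.7, 14.7 and 9.88 at 6 days. Clone 9 was highest at 4 days and lowest at 6 days. CENPA, the histone H3 variant that marks centromeres, was at 14.2, 17.1 and 16.4 CPM in DMSO, 3.50, 2.77 and 2.45 at 4 days and 2.92, 5.71 and 5.05 at 6 days. Its change was -2.44 ± 0.24 at 4 days and -1.81 ± 0.23 at 6 days, and the difference between these times was 0.62 ± 0.24 (adjusted p = 0.0802).

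All 4 genes of the chromosomal passenger complex, which corrects faulty attachments, were called lower at the 3 times. AURKB, its kinase, was at 59.5, 72.2 and 85.1 CPM in DMSO, 24.2, 34.8 and 36.6 at 2 days of IAA, 18.3, 15.9 and 20.5 at 4 days and 23.2, 23.5 and 25.7 at 6 days. In AURKB the 6-day libraries all lay above the 4-day ones, a difference of 0.41 ± 0.16 that was not called (adjusted p = 0.0852). BIRC5 (survivin) changed by -2.17 ± 0.23 at 4 days and INCENP, the scaffold, by -1.36 ± 0.15.

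Of 6 spindle motors and microtubule proteins 5 were called lower at 2 days and 6 later. KIF11, the motor that separates spindle poles, was at 90.9, 107 and 101 CPM in DMSO, 42.6, 68.6 and 61.2 at 2 days of IAA, 21.6, 42.5 and 45.3 at 4 days and 29.2, 32.8 and 45.9 at 6 days, with clone 1 lowest at 2 and 4 days. DLGAP5, a spindle microtubule stabiliser, changed by -2.15 ± 0.21 at 4 days, against -1.45 ± 0.21 for KIF11. Central spindle and cytokinesis genes were led by KIF20A, which had the largest change of all members at 6 days, -2.58 ± 0.22, from 120.0, 138 and 138 to 17, 16.1 and 32.9 CPM. ANLN (anillin, which organises the contractile ring) was at 291, 342 and 361 CPM in DMSO, 118, 195 and 195 at 2 days of IAA, 56.7, 83.3 and 139 at 4 days and 71.2, 53.5 and 94.2 at 6 days. Its groups did not overlap with DMSO. ECT2 was at 93.9, 183 and 182 CPM in DMSO, so clone 1 already held about as little as the 4-day IAA libraries of clones 7 and 9, 35.3, 92.4 and 116 over the 3 clones. ECT2 was lower in each clone, and its standard error, 0.38, was wide.

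TOP2A, the topoisomerase that untangles sister chromatids, was at 299, 301 and 309.9 CPM in DMSO, 113, 198 and 179 at 2 days of IAA, 61.1, 81.1 and 102 at 4 days and 79.1, 64.2 and 109 at 6 days. MKI67 (Ki-67), the proliferation marker on mitotic chromosomes, was at 1077, 1122 and 1082 CPM in DMSO, 418, 779 and 639 at 2 days of IAA, 280.3, 385 and 498 at 4 days and 367, 276 and 493 at 6 days. Both were called at each time, -1.90 ± 0.21 and -1.50 ± 0.21 at 4 days. FOXM1, the activator of G2/M genes, was at 101, 139.9 and 137 CPM in DMSO, 41.7, 72.4 and 75.1 at 2 days of IAA, 40.3, 26 and 44.7 at 4 days and 45.4, 49.9 and 51.1 at 6 days. It fell by 1.77 on the log2 scale at 4 days, and MYBL2 (B-MYB), its partner at these promoters, changed by -1.83 ± 0.26.

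**Figure D3:**
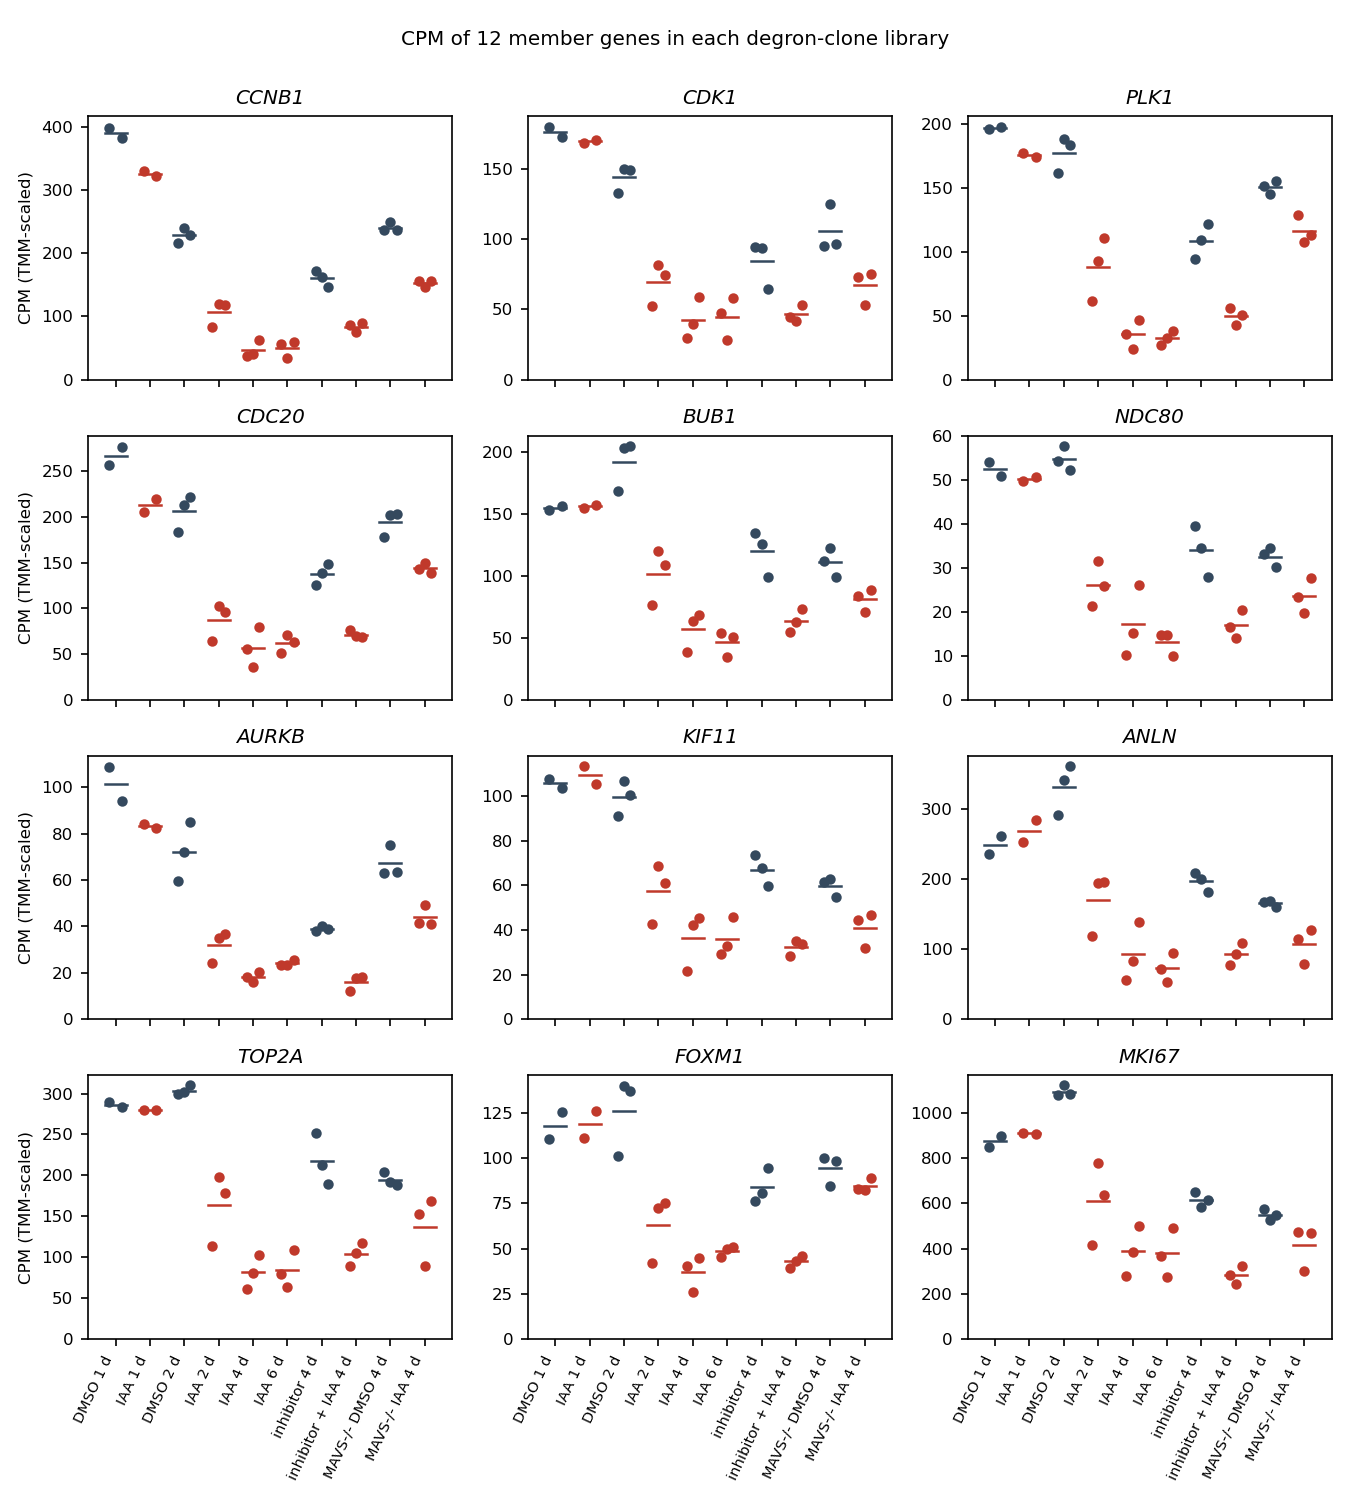
TMM-scaled CPM (linear y axes from 0, which differ between panels) of 12 members in each library (points) of 10 groups of degron clones (x axis), with group means as lines and IAA groups in red. In all 12 panels the MAVS-intact IAA libraries at 4 and 6 days lie below the 2-day DMSO libraries.

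The order of the promoter classes by median change varied between times of IAA, and no test of it was made. The 26 members with the hexamer and the 12 without it had medians of -0.90 and -0.76 at 2 days of IAA, -1.77 and -2.01 at 4 days, and -1.82 and -1.83 at 6 days. After 4OHT with Cre the medians were -2.60 and -2.35.

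On the CDK4/6 inhibitor alone part of the set was lower. At 4 days 26 members were called lower and 0 higher against 2-day DMSO, median -0.66, when 3.84% of all genes were called lower and 3.85% higher. CDCA3 changed most, -1.17 ± 0.17, and MAD2L1 least among those called, -0.52 ± 0.16. PLK1 was at 94.3, 109 and 122 CPM, MKI67 at 649, 584 and 616 and CDK1 at 94.5, 93.4 and 64.8. These values lay below all 2-day DMSO libraries, with changes of -0.72 ± 0.18, -0.83 ± 0.21 and -0.77 ± 0.22. The 19 members not called ran from -0.77 (SPC24) to 0.03 (BUB3), and of them only BUB3 was above 0. CCNB1 at -0.51 ± 0.17 (adjusted p = 0.0641), TOP2A at -0.48 ± 0.21, ANLN, KIF11 and NDC80 were among these. The number called was 9 without the inhibitor library of clone 9, 10 and 11 without the DMSO libraries of clones 9 and 7, and 13 and 16 without the inhibitor libraries of clones 1 and 7.

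At 2 days the inhibitor libraries stood apart together with the 1-day libraries, both made from clones 1 and 9. Against 2-day DMSO 20 members were called lower and MAD2L1 higher, 0.60 ± 0.17, when 13.6% of all genes were called lower and 20.8% higher. Against the 1-day DMSO libraries 9 were called lower and 0 higher, when 3.63% of all genes were called, and MAD2L1 was -0.47. MAD2L1 was at 242 and 214 CPM in 1-day DMSO, 97.8, 117 and 109.8 in 2-day DMSO and 151 and 177 on the inhibitor, so its direction follows the control. Between 2-day and 1-day DMSO 6 members were called lower (22.1% of all genes), MAD2L1 most at -1.08, and CDC25B higher (15.1% of all genes). Without the inhibitor library of clone 1, 9 members were called against 2-day DMSO. Time in culture, the set of libraries and the inhibitor cannot be told apart at 2 days.

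With IAA added, the members were lower still in cells on the inhibitor. At 4 days 41 of 45 were called lower and 0 higher against the inhibitor alone, median -1.0, when 5.1% of all genes were called lower and 6.13% higher. AURKB changed most, -1.28 ± 0.16 (adjusted p = 4.58e-06), from 38.2, 40.0 and 39 to 12.3, 17.7 and 18.4 CPM, and BUB3 least among those called, -0.33 ± 0.08. TOP2A went from 252, 213 and 189 to 89.3, 105 and 117 CPM and MKI67 from 649, 584 and 616 to 284, 242 and 321. Neither pair of groups overlapped. SPC24, CENPA, ECT2 and MYBL2 were not called, at -0.74, -0.59, -0.66 and -0.75. At 2 days of both agents 0 members were called by edgeR, when 0.117% of all genes were called lower and 0.297% higher. All 45 were below 0 there, with a median of -0.55, 27 had an unadjusted p under 0.05, and 6 were called by DESeq2, which called 3.25% of all genes. A fit of these 2 groups alone called 23 members, all lower, and 3.62% of all genes.

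The response to IAA was smaller on the inhibitor at 4 days. The arm on the inhibitor had a 4-day control and the other arm the 2-day DMSO control. Inhibitor and time of the control therefore cannot be told apart in this difference. The difference between the responses was above 0 in all 45 members, median 0.85, and was called in 18, when 2.19% of all genes were called higher and 2.5% lower. CENPA differed most, 1.84 ± 0.33 (adjusted p = 0.00168), followed by CDCA3 at 1.42 ± 0.26, and CCNB1 differed by 1.35 ± 0.24. KIF11, MKI67 and NDC80 differed by 0.41 ± 0.29, 0.37 ± 0.29 and 0.69 ± 0.32 and were not called. The number of calls was 6 without the 4-day IAA-and-inhibitor or the 2-day DMSO library of clone 9, 7 to 10 without 7 of the other libraries, and 26 without the 4-day IAA library of clone 9. Among cells given IAA for 4 days, 5 members (CCNB1, AURKA, BUB3, MAD2L1 and CENPA) were called higher with the inhibitor and 0 lower, when 5.9% of all genes were called higher and 7.33% lower. CCNB1 was at 86.5, 75.7 and 90.0 CPM with both agents and 37.7, 39.9 and 63 with IAA alone. At 2 days 0 members differed in response by edgeR, with 0 of all genes called (0%) and a median of 0.35. DESeq2 called 0 and limma 0 there. In IAA cells at 2 days the inhibitor gave 7 members lower and 3 higher (14.8% and 22.8% of all genes). Against the 1-day IAA libraries 39 were lower and 0 higher, when 7.52% of all genes were called. Those arms also differ in time of IAA, 2 days against 1 day. Inhibitor and time of IAA cannot be told apart there. With equal times of IAA, leaving out single libraries gave 2 (without clone 1 on both agents) to 17 (without clone 1 on IAA) at 2 days. At 4 days it gave 3 (without clone 1 on both agents) to 9 (without clone 9 on IAA).

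In MAVS-/- clones few members were called with IAA. At 4 days 7 of 45 were called lower and 0 higher, median -0.44, when 3.15% of all genes were called lower and 4.73% higher. They were CCNB1, CDC25B, ESPL1, BUB1B, MAD2L1, AURKB and DLGAP5, from -0.41 (CDC25B) to -0.93 (ESPL1). ESPL1 was at 105, 101 and 109 CPM in the DMSO libraries of clones 1, 13 and 15 and 56.5, 48.5 and 60.0 in their IAA libraries, with no overlap (edgeR adjusted p = 0.00457). CCNB1 was at 236, 249 and 236 against 156, 147 and 157 CPM. The other 38 members were also below 0, down to -0.75 (CENPF) and up to -0.08 (KIF4A). By edgeR 28 of the 45 had an unadjusted p under 0.05, all lower. Of 18877 genes 1696 did so with a lower and 2040 with a higher value. PLK1 was at 152, 145 and 155 against 129, 108 and 113 CPM and was not called, -0.37 ± 0.18 (adjusted p = 0.265). FOXM1 was at 100.2, 84.3 and 98.1 against 82.9, 82.3 and 89.1 CPM, also not called. With the clone as a block 11 members were called lower, adding AURKA, CENPF, INCENP and ANLN, when 9.92% of all genes were called. The number was 2 or 3 without the DMSO library of clone 13 or the IAA library of clone 13 or 15. It was 15 by DESeq2 (15.3% of all genes) and 2 by limma (5.94% of all genes). Clone 13 had the largest median change, -0.76, against -0.38 in clone 1 and -0.31 in clone 15.

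The response differed from that of the MAVS-intact clones in 38 members, all by a smaller fall without MAVS, with a median difference of 1.38, when 2.46% of all genes were called higher and 2.39% lower. CENPA differed most, 2.08 ± 0.32, and PLK1 differed by 1.95 ± 0.26 (adjusted p = 4.17e-05). CDC25B, TTK, NUF2, CENPE, KIF11, HMMR and ECT2 were not called, at 0.24 (CDC25B) to 1.16 (HMMR). The clones also differed before IAA. In MAVS-/- DMSO at 4 days 20 members were called lower than in MAVS-intact DMSO at 2 days and 0 higher, median -0.42, when 21.6% of all genes were called lower and 24.5% higher. CENPE and TTK were lowest there, at -1.68 and -1.38. After 4 days of IAA 32 members were called higher in the MAVS-/- clones and CENPE lower, median 0.996, when 25.6% of all genes were called higher and 23.9% lower. MAVS loss, clone and time of the DMSO control cannot be told apart in these differences.

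**Figure D4:**
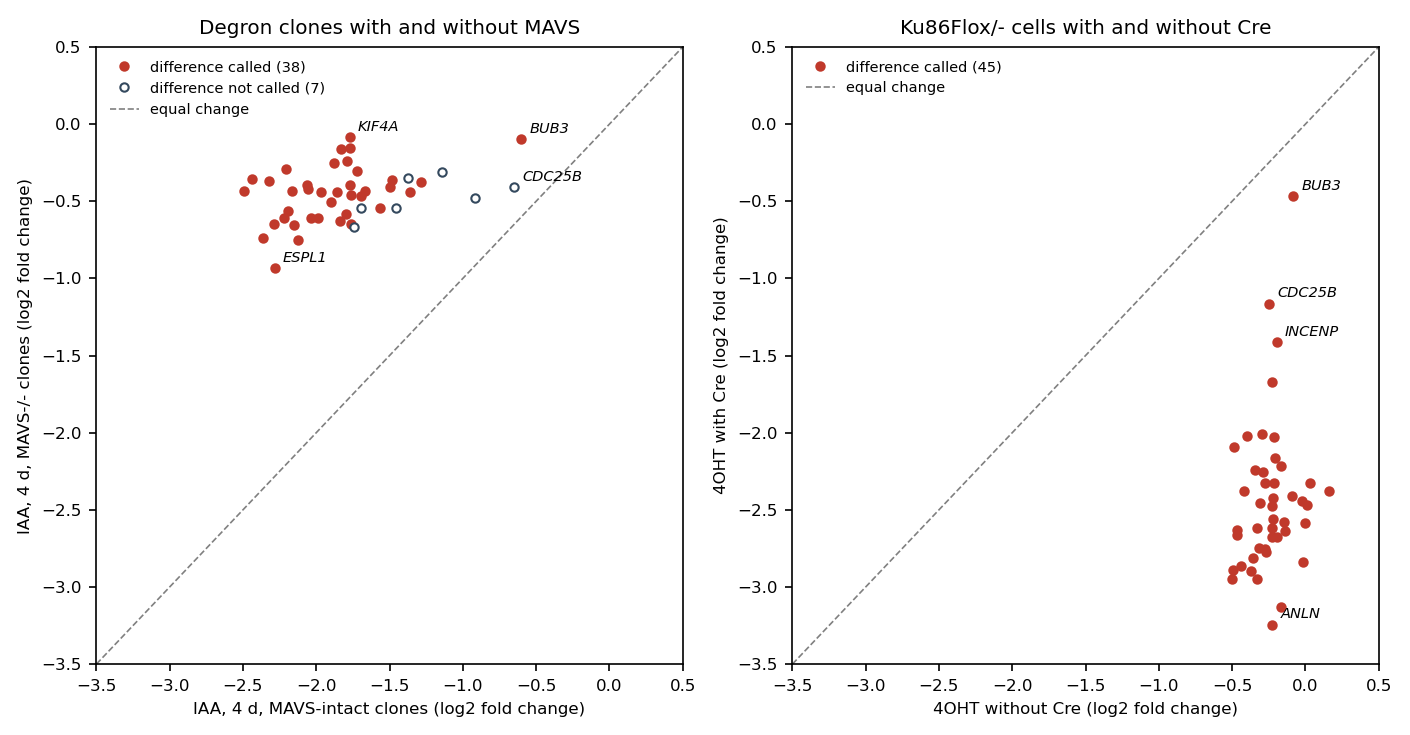
Log2 fold change of each of the 45 genes (points) with 4 days of IAA in MAVS-intact (x) and MAVS-/- clones (y) at left, and with 4OHT without (x) and with Cre (y) at right; red points had a called difference between the responses and the dashed line marks equal change. At left 45 points lie above the line and 38 are red, and at right 45 lie below it and all are red.

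With Cre and 4OHT every member was lower. With 4OHT in Ku86Flox/-:CreERT2 cells 45 of 45 were called lower, median -2.47, when 27.5% of all genes were called lower and 26.4% higher. ANLN changed most, from 197 and 202 CPM in ethanol to 20.3 and 21.9 in 4OHT, -3.24 ± 0.07 or 9.47-fold lower (edgeR adjusted p = 2.65e-12). MKI67 went from 633 and 626 to 71.3 and 72.3 CPM, 8.77-fold lower. CDC20 went from 212 and 195 to 24.5 and 28.4 CPM. In none of the 45 did the 2 groups overlap. With 2 libraries per group separation is easily reached, and its share over all genes was not counted.

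Members of each role were called lower. CCNB1 went from 179 and 176 to 32.7 and 42.4 CPM (-2.24 ± 0.10). CDK1 went from 109 and 118 to 20.7 and 24.7 (-2.33 ± 0.08), and PLK1 from 131 and 129 to 22.2 and 25 (-2.46 ± 0.07). Checkpoint and kinetochore genes were lower too. BUB1 went from 103 and 108 to 12.4 and 16.7 CPM (-2.86 ± 0.10), and NDC80 from 31.2 and 34.3 to 4.75 and 4.79 (-2.78 ± 0.11). CENPA went from 15.2 and 15.2 to 1.77 and 2.16 CPM (-2.95 ± 0.16). AURKB, KIF11 and TOP2A changed by -2.68 ± 0.09, -2.84 ± 0.13 and -2.41 ± 0.07, and FOXM1 by -2.44 ± 0.07. BUB3 again changed least, from 201 and 199 to 149 and 141 CPM (-0.47 ± 0.06), then CDC25B (-1.16 ± 0.06), INCENP (-1.41 ± 0.07) and ECT2 (-1.67 ± 0.09). The fall was larger than at 4 days of IAA in 40 of 45 members, in separate fits and without a test. XRCC5, the Ku80 gene, was at 161 to 166 TPM in ethanol and 13.2 to 17.3 TPM in 4OHT with Cre, and at 151 to 166 and 152 to 154 TPM without Cre. The labels do not say that replicates 1 and 2 were separate cultures, so these p-values measure the spread between libraries.

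Without Cre 4OHT also gave small falls. In Ku86Flox/- cells 25 members were called lower and 0 higher, median -0.23, when 6.44% of all genes were called lower and 7.26% higher. CDC20 changed most, -0.50 ± 0.07, from 207 and 218 to 143 and 158 CPM, and TPX2, a spindle assembly factor, least among those called, -0.21 ± 0.06. The 20 not called ran from -0.33 (CENPA) to 0.16 (SPC24), with 17 below 0. KIF11, TOP2A, FOXM1 and MKI67 were among them. The number called was 8 and 13 without 4OHT replicate 1 and 2, and 4 by limma on TPM (3.43% of all genes). The difference between the responses with and without Cre was called in 45 of 45, median -2.34, when 22.4% of all genes were called lower and 18.8% higher. It ran from -0.38 ± 0.08 (BUB3) to -3.02 ± 0.09 (ANLN).

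In HEK293 clones few members were called 8 days after doxycycline withdrawal. 9 of 45 were called lower and 0 higher, median -0.14, when 10.9% of all genes were called lower and 11.1% higher. XRCC6, the Ku70 gene, was at 3687 to 4983 TPM with doxycycline and 277 to 486 TPM without it. ESPL1 changed most, from 76.5, 86.6 and 78.2 CPM with doxycycline in clones Sa11, SB and TI to 42.7, 57.6 and 35.7 without it, -0.83 ± 0.17 (edgeR adjusted p = 0.0098). CDK1 went from 347, 328 and 328 to 215, 235 and 247 CPM (-0.53 ± 0.12). ANLN went from 189.7, 191 and 204 to 113, 124 and 138 CPM (-0.64 ± 0.12). These 3 were among 14 members with all values lower without doxycycline, while 2 lay all higher and 29 overlapped. The share of such separation over all genes was not counted. PTTG1, BUB1B, SPC24, CENPF, INCENP and ECT2 were also called, ECT2 with the smallest change, -0.37 ± 0.12. Of the 36 not called 25 were below 0 and 11 above, from -0.50 (KIF20A) to 0.40 (TPX2). PLK1 was at 106, 105 and 104 CPM with and 125, 84.6 and 98.4 without doxycycline, and the arms overlapped. TOP2A, the third highest member per length in these cells at 439 ± 29.2 TPM, was at -0.12 ± 0.14. With the clone as a block 16 were called, 13 lower and NEK2, BIRC5 and TPX2 higher. That fit called 34.8% of all genes, a share close to that of the members. The number fell to 2 without the Sa11 library off doxycycline and to 3 without the Sa11 or TI library on it.

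Since 44 of 45 members were called lower at 4 days of IAA and 45 with Cre and 4OHT, the calls shared with HEK293 restate the HEK293 calls. They were CDK1, PTTG1, ESPL1, BUB1B, SPC24, CENPF, INCENP and ANLN. These are all of the 9 but ECT2, the member not called at 4 days of IAA in the fit without a clone block.

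Lists of other genes of mitosis, of 11 to 23 genes, are given at 4 days of IAA by their counts (14.9% of all genes lower, 17.9% higher), and their difference from the members was not tested. Of 14 condensin, cohesin and cohesin-protection genes 11 were called lower and 0 higher, NCAPD2 (condensin) most at -1.92 ± 0.14. Of 23 other kinetochore and centromere proteins 19 were called lower and 1 higher, CENPM most at -2.42 ± 0.28. Of 17 subunits and regulators of the anaphase-promoting complex 7 were called lower and 2 higher, and their median was -0.35. Of 11 MuvB, DREAM and B-MYB partners 4 were called lower and 2 higher, RBL1 (p107) most at -1.43 ± 0.19. Of 13 mitotic entry brakes and phosphatase regulators 5 were called lower and 0 higher, GTSE1 most at -2.08 ± 0.18.

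DNA replication genes act a phase earlier. They were also lower in the MAVS-intact clones at 2, 4 and 6 days of IAA, and with Cre and 4OHT. Of 33 such genes 33 were called lower at 2 days of IAA (median -1.09), 32 at 4 days (median -1.46) and 31 at 6 days (median -1.34). Of all genes 9.94%, 14.9% and 17.5% were called lower at these times. With Cre and 4OHT 32 were called lower, median -1.91, when 27.5% of all genes were called lower. Under 4OHT without Cre the lists parted: 0 replication genes were called lower and 11 higher, CCNE2 most at 1.13 ± 0.09, beside the 25 members called lower. Of all genes 6.44% were called lower and 7.26% higher there. In MAVS-/- clones 11 of 33 were called lower, median -0.38, when 3.15% of all genes were called lower. In HEK293 2 of 33 were called lower and 5 higher, near the 10.9% and 11.1% of all genes, with ORC1 most at 1.17 ± 0.19.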

How the data were processed

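RNA was sequenced in 40 HCT116 libraries (poly-A) and 6 HEK293 libraries (ribosomal RNA depleted), grouped by the labels. The authors deposited a gene table per cell line with estimated counts, which were rounded to whole numbers here, and TPM, which already divides by length and depth. Per the submitters' processing notes Salmon 1.10.2, kallisto 0.50.0, DESeq2 and GRCh38 were used. Which tool made which table, and how reads shared by near-identical copies were divided, was unstated there.

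Counts were fitted with edgeR 4.0.16 (R 4.3.3) by quasi-likelihood, with TMM scaling and a low-count filter by group, in 3 fits. The fits held 32 degron libraries (18877 genes), 8 Ku86Flox/- libraries (16726) and 6 HEK293 libraries (15549), with 20, 4 and 4 residual degrees of freedom. P-values were adjusted by Benjamini-Hochberg over all genes of a fit, with a threshold of 0.05. Alternatives were RLE scaling, limma 3.58.1 on log2(TPM + 1), DESeq2 1.42.0, no filter, fits of the compared groups alone, a replicate block and leaving out each library. Depth was 9.53 to 45.7 M counts per library, and replicates differed by more than sampling noise. The edgeR step was tested on simulated data.

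Clones pair the libraries, since the same clone is in both arms. The correlation of same-clone deviations was 0.245 to 0.467 in HEK293, 0.0621 to 0.273 in MAVS-/- clones and 0.0236 to 0.0666 at 4 days of IAA. The numbers of the Ku86Flox/- replicates pair nothing by label, and their correlations were 0.012 with Cre and 0.0632 without.

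The members and the other gene lists were chosen with earlier results of these data known. Named in each comparison were an anchor per role (12 genes), the called members with the largest and smallest change, and members not called. RefSeq promoters (GRCh38.p14) matched 38 members by symbol, using the first entry of each. Promoters of the other 7 were not used here.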

Additional observations from a re-analysis of the deposited data

Results flagged for a closer look

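Differences between 2 responses to the same agent are given here because the test of the difference itself was called by edgeR, and they are on the log2 scale. With the CDK4/6 inhibitor the response to 4 days of IAA differed in 18 members, by 1.35 in CCNB1, 1.21 in PLK1, 0.91 in CDC20, 1.84 in CENPA (the largest called difference) and 0.76 in BUB1B (the smallest). These differences set a 4-day control on the inhibitor against a 2-day DMSO control. The starting level of the arms differed: summed CPM of the 45 genes averaged 4889 on the inhibitor and 7387 in 2-day DMSO, and its part in the difference was not tested.

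Without MAVS the response to IAA differed in 38 members. The difference was 1.64 in CCNB1, 1.12 in CDK1, 1.95 in PLK1, 1.42 in CDC20, 1.3 in BUB1 and 1.23 in NDC80. It was 1.38 in AURKB, 1.21 in ANLN, 1.40 in TOP2A, 1.09 in MKI67 and 1.62 in FOXM1, with the largest in CENPA, 2.08, and the smallest called in BUB3, 0.51. These differences set a 4-day DMSO control in MAVS-/- clones against a 2-day one in MAVS-intact clones.

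With Cre the response to 4OHT differed in 45 members. The difference was -1.90 in CCNB1, -2.05 in CDK1, -2.15 in PLK1, -2.45 in CDC20, -2.42 in BUB1 and -2.51 in NDC80. It was -2.48 in AURKB, -2.82 in KIF11, -2.32 in TOP2A, -2.97 in MKI67 and -2.41 in FOXM1, with the largest in ANLN, -3.02, and the smallest in BUB3, -0.38.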

How the results depend on the processing

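The call of all 45 members at 6 days of IAA, with Cre and 4OHT, and in the Cre difference held under each alternative run. Fits of the compared groups alone were not run for HEK293 or the Cre difference, where they are the same fit. Counts of called members that moved by over 1.5 times follow, and the cause was not tested. The share of all genes called in the same run, in either direction, stands in brackets. With only the compared groups fitted, the count was 4 at 1 day of IAA (9.99%). It was 13 between 2 and 4 days (1.77%) and 0 between 4 and 6 days (0.351%). It was 34 for the inhibitor at 2 days (50.3%) and 23 for IAA under it at 2 days (3.62%). For the inhibitor in IAA cells at 4 days it was 2 (4.3%). Without the count filter it was 7 between 4 and 6 days (7.57%) and 32 for the inhibitor at 2 days (17%). It was 10 for IAA under the inhibitor at 2 days (0.655%). For the inhibitor in IAA cells it was 17 at 2 days (18.9%) and 8 at 4 days (6.92%). It was 31 for the inhibitor difference at 4 days (3.33%) and 22 in MAVS-/- clones (3.96%). DESeq2 called 6 for IAA under the inhibitor at 2 days (3.25%) and 15 in MAVS-/- clones (15.3%). limma on log2(TPM + 1) called 41 for the inhibitor at 2 days (46.2%) and 26 for IAA under it at 4 days (8.54%). It called 32 for the inhibitor in IAA cells at 2 days (49.8%) and 28 for the inhibitor difference at 4 days (7.8%). It called 2 in MAVS-/- clones (5.94%) and 4 with 4OHT without Cre (3.43%). The replicate block by clone gave 2 between 4 and 6 days (14.4%) and 11 in MAVS-/- clones (9.92%). It gave 16 in HEK293 (34.8% of all genes, against 22% without the block), and moved no other count by over 1.5 times.

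Leaving out single libraries gave 28 to 40 members at 2 days of IAA, 44 to 45 at 4 days, 35 to 39 for IAA under the inhibitor at 4 days and 30 to 41 for the MAVS difference. Elsewhere single libraries moved the count by over 1.5 times. Between 2 and 4 days it was 20 to 40, with 20 without clone 7 and 23 without clone 9 at 2 days. Between 4 and 6 days it was 1 to 5, with 5 without clone 1 and 3 without clone 9 at 4 days, and 2 without clone 7 and 3 without clone 9 at 6 days; the balance turned to higher without clone 1 at 6 days (1) and without clone 9 at 4 days (3). For the inhibitor at 2 days it was 9 (without clone 1 on the inhibitor) to 21. At 4 days it was 9 to 22, with 13, 16 and 9 without clones 1, 7 and 9 on the inhibitor and 11 and 10 without clones 7 and 9 in DMSO. For the inhibitor in IAA cells it was 2 to 17 at 2 days, with 2 without clone 1 on both agents and 17 and 6 without clones 1 and 7 on IAA, and 3 to 9 at 4 days, with 3 without clone 1 on both agents and 9 without clone 9 on IAA. For the inhibitor difference at 4 days it was 6 to 26, with 9, 9 and 7 without clones 1, 7 and 9 on the inhibitor, 9 and 6 without clones 7 and 9 on both agents, 10 and 9 without clones 1 and 7 on IAA, and 7 and 6 without clones 7 and 9 in DMSO. In MAVS-/- clones it was 2 to 7, with 2 without clone 13 in DMSO and 3 without clone 13 or clone 15 on IAA. For 4OHT without Cre it was 8 to 29, with 8 and 13 without replicates 1 and 2 on 4OHT. In HEK293 it was 2 to 11, with 3 without clone Sa11 or TI with doxycycline and 2 without clone Sa11 after its withdrawal.

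Chosen after seeing the data, 1-day DMSO as control gave 9 members for the inhibitor at 2 days (3.63% of all genes) and 10 for the inhibitor difference at 2 days (26.2% of all genes). It turned the log2 change of CDC25B to 0.46 at 2 and 0.0601 at 4 days of IAA, to 0.20 and 0.69 on the inhibitor at 2 and 4 days, and to -0.47 in the MAVS difference, and MAD2L1 on the inhibitor at 2 days to -0.47. The 1-day IAA libraries as comparator for the inhibitor in IAA cells at 2 days gave 39 (7.52% of all genes) and turned CCNB1 to -1.10, CDK1 to -1.11, CDC25B to 0.10, AURKA to -1.04, CDC20 to -1.18, ESPL1 to -0.98, BUB1B to -1.18, BUB3 to -0.38, MAD2L1 to -1.0, SPC25 to -1.42, AURKB to -1.35, BIRC5 to -1.14, KIF4A to -0.99, TPX2 to -0.83 and MYBL2 to -1.10. The arms of that run differ in time of IAA, 2 days against 1 day, as well as in the inhibitor. These cannot be told apart there. For the inhibitor in IAA cells against the 2-day IAA libraries, limma turned CCNB1 to -0.0764, BUB3 to -0.29, AURKB to -0.67 and TPX2 to -0.51. Over single members 10097 values kept direction and call, 631 lost the call, 433 gained it, 286 moved and 25 reversed. Groups of 2 or 3 libraries limit the precision, and the part of depth in it was not tested.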
